A study of Rattus norvegicus with 6 samples.

Results

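The respiratory chain and ATP synthase are built from proteins of 2 genomes, and the messenger RNAs of both were compared in rat marrow mesenchymal stem cells. Members were the rows of the deposited gene table whose symbol starts with Mt-, Nduf, Sdha, Sdhb, Sdhc, Sdhd, Uqcr or Atp5, or with Cox and a digit from 4 to 8. There were 148 such rows among 23091, of which 13 are mitochondrially encoded mRNAs and 135 nuclear encoded, and they carry 109 different symbols. The CYSP group holds 3 samples treated with CYSP, a name not explained in the labels, and the CK group holds 3 samples that received the solvent DMSO. All 6 are labelled wild type and MSCs, and all were kept in neural differentiation medium for 7 days. No label says whether the samples of a group are separate cultures or animals, so p-values set the difference between groups against a spread that may be technical. Total counts lay between 15060933 and 17244700 per sample, and a gene with a count of 0 in a sample could have up to 3 counts, or 0.174 to 0.199 CPM (counts scaled to the library total), by counting error alone.

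Complex I passes electrons from NADH to ubiquinone, complex II does so from succinate, complex III passes them on to cytochrome c and complex IV to oxygen. Complexes I, III and IV pump protons, and complex V, the ATP synthase, uses the gradient to make ATP. Mitochondrial DNA encodes catalytic or proton-conducting subunits of complexes I, III, IV and V and is transcribed as long precursor RNAs that are cut into single mRNAs. All subunits of complex II, and most subunits of the other complexes, come from the nucleus.

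In CYSP the mitochondrially encoded mRNAs were higher throughout, whereas the nuclear encoded members were mixed. Every one of the 13 mitochondrially encoded mRNAs rose; their log2 fold changes ran between 0.73 and 1.59 around a median of 1.35. Of 90 nuclear encoded rows with enough counts to be tested, 54 rose and 5 fell, while 31 missed the threshold; their median log2 fold change was 0.26 and their quartiles were 0.08 and 0.56. Over all 12623 genes tested by edgeR's quasi-likelihood test, 38.2% were higher and 37.8% lower at a Benjamini-Hochberg adjusted p under 0.05, and log2 fold changes had a median of 0.00 and quartiles of -0.50 and 0.57. Against that background the nuclear members that rose were 54 of 90 and those that fell 5 of 90. Of the 45 rows not tested, 34 were at 0 counts in all 6 samples and 11 were too low for the filter, so no change can be given for them.

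No member's groups overlapped in the mitochondrial set, and 56 nuclear rows lay wholly higher and 5 wholly lower in CYSP, against 38.8% and 38.2% of all tested genes. A gain of at least 1 on the log2 scale was seen in 11 of the 13 mitochondrial members and in 7 of the 90 nuclear ones, against 15.2% of all tested genes that rose by as much. A single nuclear member, Cox6a2, was at least 1 lower, as were 12.7% of all tested genes. A coefficient of variation of 0.2 between samples was also assumed in place of the small estimated one. All 13 mitochondrial members were still called, and 23 nuclear members were higher and 1 lower. Over all 12623 genes, 3102 were then higher and 2801 lower. A test against a log2 fold change of 0.5 also called all 13, with 15 nuclear members higher and 1 lower. Over all genes that test called 2753 higher and 2478 lower. Under both, the share of nuclear members that rose was not far from that of all genes, or below it. The share that fell was far below that of all genes. The plot of fold changes shows the 2 genomes side by side for each complex.

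**Figure D1:**
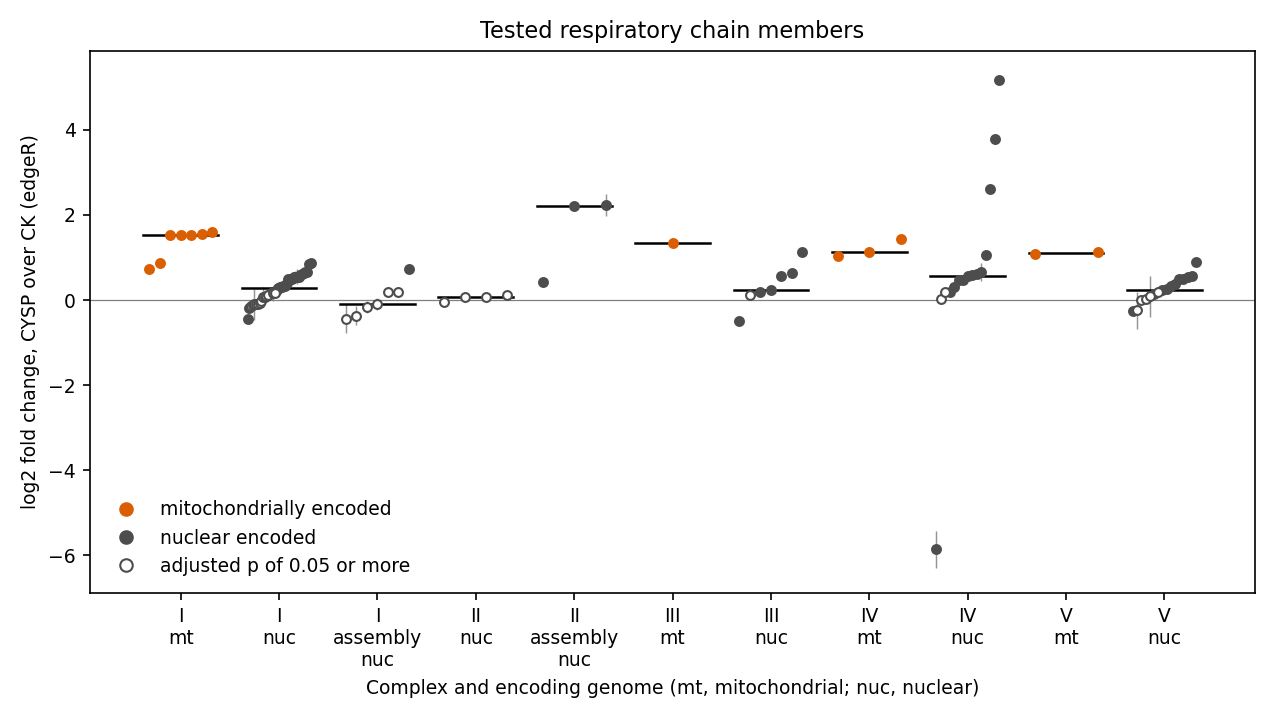
Log2 fold change of each tested member, CYSP over CK (edgeR), by complex and encoding genome; bars are standard errors, which are mostly smaller than the points, black lines are medians, and open points did not pass the test. Mitochondrially encoded members lie between 0.73 and 1.59, while most nuclear members lie closer to 0, apart from a few in complex IV and the complex II assembly factors.

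The mitochondrial mRNAs took up a larger share of the library in CYSP. They held 11.1%, 10.9% and 11.1% of all counts in the CYSP samples, against 4.96%, 5.06% and 4.99% in the CK samples, a ratio of means of 2.21. The lowest CYSP share lies well above the highest CK share. Wilson intervals at the 95% level reach at most 0.016 percentage points to either side of each share and cover counting error only. An exact two-sided permutation test of 3 against 3 samples cannot go below p = 0.1, so by that test no ratio or share given here can pass a threshold of 0.05, and none was tested in another way. As a share of summed FPKM, which divides by gene length, the same mRNAs held 21.2% ± 0.148 in CYSP and 11.3% ± 0.0717 in CK (SD, n = 3 each), a ratio of 1.88.

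By complex, the mitochondrial share of counts for complex I was 2.63% ± 0.027 in CYSP and 1.05% ± 0.0123 in CK. Cytochrome b, the one mitochondrial subunit of complex III, held 1.27% ± 0.0098 in CYSP and 0.528% ± 0.00824 in CK. Complex IV held 6.62% ± 0.0873 in CYSP and 3.17% ± 0.0398 in CK, and complex V held 0.51% ± 0.00586 in CYSP and 0.253% ± 0.00405 in CK. The ratio of means was thus 2.5 for complex I, 2.4 for complex III, 2.09 for complex IV and 2.02 for complex V. All nuclear members together held 0.46% ± 0.0049 of counts in CYSP and 0.364% ± 0.00682 in CK, a ratio of 1.27, and on the FPKM scale 0.905% ± 0.0138 in CYSP and 0.86% ± 0.0115 in CK, a ratio of 1.05. By complex, that FPKM ratio was 0.966 for nuclear complex I, 0.829 for complex II and 1.02 for complex III. It was 1.34 for complex IV and 0.965 for complex V. In counts the ratio was 1.17 for complex I and 1.14 for complex V, so the direction of these sums differs between the scales. Both totals include the mitochondrial mRNAs, whose larger share in CYSP lowers every nuclear share there, and more so in FPKM. Shares of a total without the mitochondrial mRNAs were not computed. All shares given are of RNA in bulk samples, where more transcript per cell and more cells that carry it cannot be told apart. RNA was selected on oligo(dT) beads, and whether the length of poly(A) tails differed between groups was not tested.

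**Figure D2:**
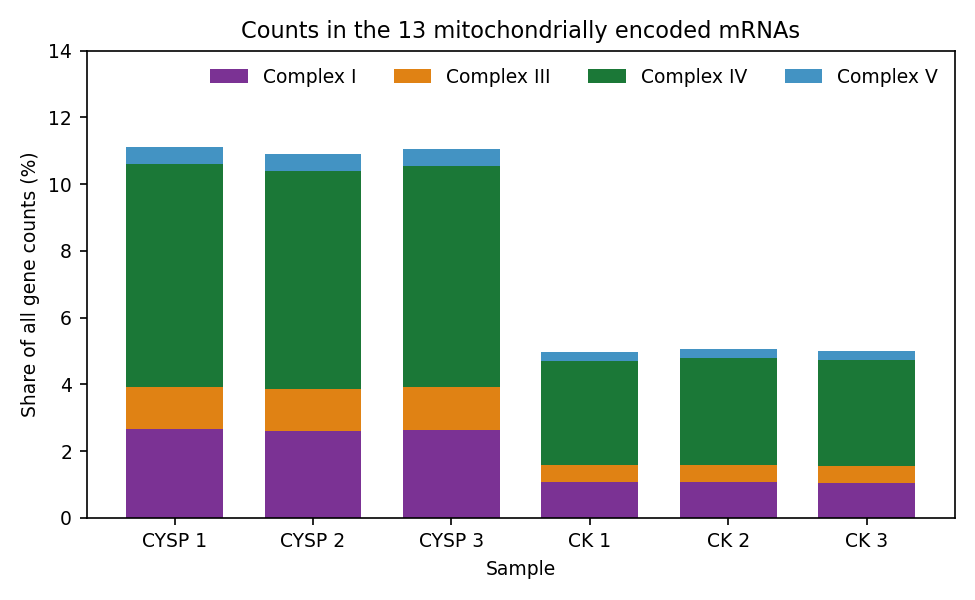
Share of all gene counts (%) in the 13 mitochondrially encoded mRNAs, per sample, stacked by complex. The CYSP bars reach 10.9% to 11.1% and the CK bars 4.96% to 5.06%, and complex IV makes up the largest part of every bar.

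Mt-co1, the catalytic subunit of complex IV, was the most abundant of these mRNAs per length. It had 31269, 30263 and 31196 FPKM in the CYSP samples, against 14732, 15191 and 15085 FPKM in the CK samples. Mt-co3, Mt-co2, Mt-cyb, Mt-atp6 and Mt-nd4 followed in that order in both groups, and Mt-atp8 was lowest with 1015 ± 31.7 FPKM in CYSP and 486 ± 15.3 FPKM in CK. The order in between differed. In CYSP Mt-nd1 came next, at 4679 ± 29.8 FPKM, ahead of Mt-nd5 at 3701 ± 99.9 and Mt-nd2 at 3572 ± 23.8. In CK Mt-nd2 came next, at 2050 ± 49.5 FPKM, ahead of Mt-nd1 at 1645 ± 19.7 and Mt-nd5 at 1366 ± 8.82. The neighbours that overlapped between samples were Mt-nd4l with Mt-nd6 in both groups and with Mt-nd3 in CYSP.

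**Figure D3:**
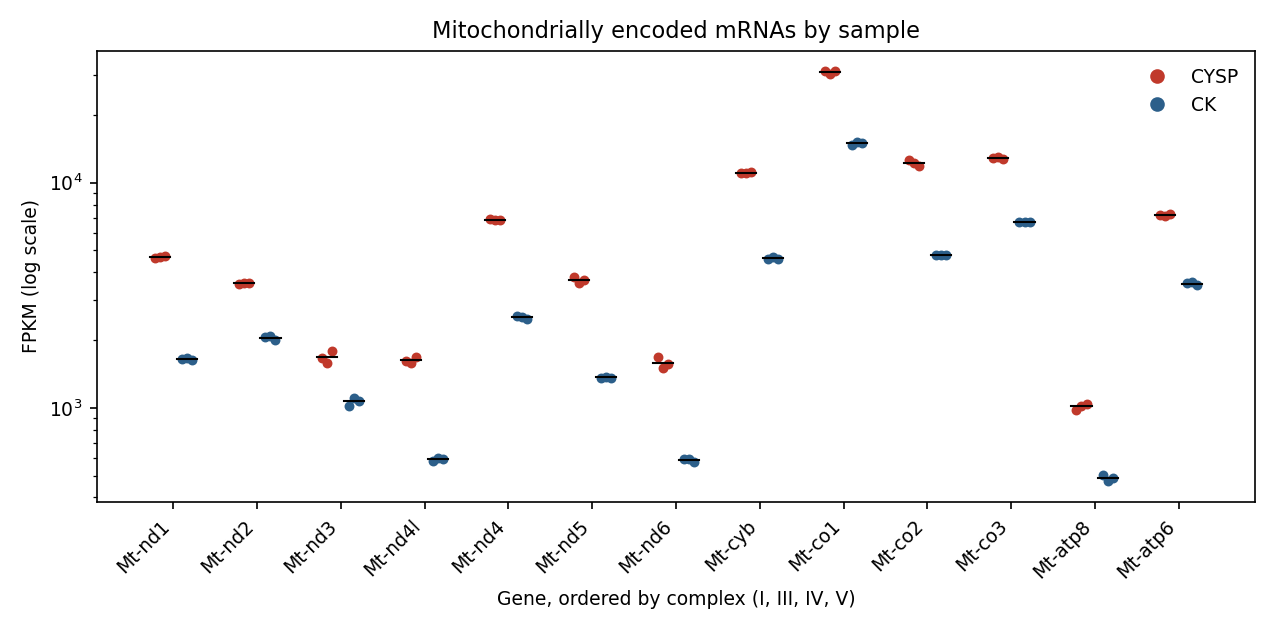
FPKM (log scale) of the 13 mitochondrially encoded mRNAs in each sample, ordered by complex; points are samples and lines are group means (n = 3 each). Every CYSP point lies above every CK point of the same gene, and the gap is narrowest for Mt-nd3 and Mt-nd2.

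Within complex I the 7 mitochondrial subunits, all membrane proteins of the proton-pumping arm, fell into a close group and a pair below it. Mt-nd1, where the quinone channel meets the membrane arm, had 4593, 4582 and 4622 CPM in CYSP samples, against 1529, 1543 and 1509 CPM in CK samples, a log2 fold change of 1.59 ± 0.0223 (SE). Mt-nd4l, Mt-nd4, Mt-nd5 and Mt-nd6 had log2 fold changes of 1.55, 1.53, 1.52 and 1.52. Mt-nd2 rose less, with 3814, 3805 and 3840 CPM in CYSP and 2092, 2104 and 2014 CPM in CK, a log2 fold change of 0.88 ± 0.0223. Mt-nd3 had the smallest gain, with 600, 563 and 641 CPM in CYSP and 345, 375 and 364 CPM in CK, a log2 fold change of 0.73 ± 0.041. The groups did not overlap for any of the 7.

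Ratios between mitochondrial mRNAs overlapped between the groups for some pairs and not for others. The FPKM ratio of Mt-nd4l to Mt-nd4, whose reading frames overlap on a shared mRNA in mammals, was 0.237 ± 0.00873 in CYSP and 0.234 ± 0.00652 in CK. That of Mt-atp8 to Mt-atp6, another such pair, was 0.141 ± 0.00408 in CYSP and 0.136 ± 0.00503 in CK, and that of Mt-nd6, the only member on the light strand in mammals, to Mt-nd5 was 0.427 ± 0.0149 in CYSP and 0.429 ± 0.00806 in CK. In each of these pairs the groups overlapped. By contrast, the ratio of Mt-nd1 to Mt-nd2 was 1.31, 1.31 and 1.31 in CYSP and 0.795, 0.798 and 0.815 in CK, with no overlap. The ratio of Mt-co2 to Mt-co1 was 0.405, 0.403 and 0.382 in CYSP and 0.323, 0.316 and 0.317 in CK, again without overlap. No source used here says whether reads were counted by strand, so reads from overlapping genes on opposite strands, and reads shared with nuclear copies of mitochondrial DNA, may not be told apart.

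In the other complexes the mitochondrial subunits gained between 1.03 and 1.44. Mt-cyb, the haem-bearing core of complex III, had 13084, 12917 and 13144 CPM in CYSP samples, against 5090, 5216 and 5083 CPM in CK samples, a log2 fold change of 1.35 ± 0.02. Mt-co2, which receives electrons from cytochrome c, had a log2 fold change of 1.44 ± 0.0217, above Mt-co1 at 1.13 ± 0.0181 and Mt-co3 at 1.03 ± 0.02. The ATP synthase subunits Mt-atp8 and Mt-atp6 had 1.14 ± 0.0397 and 1.09 ± 0.0218. The largest edgeR adjusted p among the 13 was 8.54e-12, for Mt-nd3.

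Set against a nuclear partner in the same complex, the mitochondrial mRNA was higher per length in CYSP. Mt-nd1 had 130 ± 2.4 times the FPKM of Ndufs1, the largest nuclear subunit of complex I, in CYSP and 61.7 ± 3 times in CK. For Mt-cyb over Uqcrfs1, the Rieske iron-sulphur protein of complex III, the ratio was 141 ± 8.16 in CYSP and 82.2 ± 5.45 in CK. Mt-co1 over Cox4i1 gave 264 ± 16.2 in CYSP and 151 ± 3.08 in CK, and Mt-atp6 over Atp5f1a, a catalytic-ring subunit of the ATP synthase, gave 46.8 ± 2.01 in CYSP and 27.6 ± 0.925 in CK. The groups did not overlap in any of these 4 ratios.

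Of the nuclear subunits of complex I, 23 of 38 tested rows rose, 2 fell and 13 did not pass, around a median of 0.29. Among the 23 are the rows of Ndufa7 and Ndufb2, which the table describes as other genes, and copies of 2 further symbols. Without such rows 19 rose and 2 fell, around a median of 0.24. Ndufa6 had 20.6, 21.7 and 23.8 CPM in CYSP samples, against 11.9, 13.4 and 11.1 CPM in CK samples, a log2 fold change of 0.86 ± 0.102. Ndufa1, a small accessory subunit, had 28 ± 2.63 CPM in CYSP and 15.5 ± 0.473 CPM in CK, a log2 fold change of 0.85 ± 0.0917. Ndufa10l1 followed with 0.67 ± 0.0528, although its row is described in the table as subunit A10. None of the 38 reached a log2 fold change of 1 in either direction.

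Grouping by role, made after the values were seen, showed changes in both directions among nuclear core subunits of complex I, which carry its flavin and iron-sulphur centres. Ndufs1 and Ndufv1 rose, with log2 fold changes of 0.53 and 0.34. Ndufv2 fell, with 45.1, 43.6 and 38.1 CPM in CYSP samples, against 56.3, 62.2 and 54.7 CPM in CK samples, a log2 fold change of -0.45 ± 0.0627 and no overlap. Ndufs3 was at -0.19 ± 0.0871 with an edgeR adjusted p of 0.0485, and its call was lost without CYSP sample 1, without CYSP sample 3, and without CK sample 1 or 2. Ndufs7 and Ndufs8 had -0.07 and -0.03 and did not pass. Among 31 tested accessory rows, 20 rose and none fell at an adjusted p under 0.05 in the edgeR fit. Of all genes tested, 38.2% rose and 37.8% fell. The 20 include the rows of Ndufa7 and Ndufb2, which the table describes as other genes, and the second rows of Ndufa10l1 and Ndufs5. On the FPKM scale, however, limma called 7 complex I rows lower. Over all genes, the fit on log2(FPKM + 1) called 5049 lower and 3968 higher, around a median log2 fold change of -0.07. Among the 7 rows were Ndufc2, Ndufb8, Ndufa5 and Ndufa13, named after their values were seen. The edgeR fit places these at -0.09 to -0.15, and the shift of all genes between the 2 fits was -0.08.

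Of 7 tested complex I assembly factors that the symbols take in, 1 rose and 6 did not pass, around a median of -0.10. Ndufaf5, which modifies a core subunit during assembly, had 21.3, 17 and 17.2 CPM in CYSP samples, against 11.6, 10.3 and 11.4 CPM in CK samples, a log2 fold change of 0.74 ± 0.11.

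Complex II, the entirely nuclear complex that also acts in the citric acid cycle, showed no subunit past the threshold. Sdha, which oxidises succinate, had 79.5, 77.3 and 78.9 CPM in CYSP samples, against 73.8, 72.3 and 77.7 CPM in CK samples, a log2 fold change of 0.07 ± 0.0497. Sdhb, with the iron-sulphur centres, was at -0.04 ± 0.0642, and the membrane anchors Sdhc and Sdhd were at 0.07 ± 0.0552 and 0.13 ± 0.0664. The 2 groups overlapped for Sdha, Sdhb and Sdhc and did not overlap for Sdhd, at 42.5, 40.5 and 40.9 CPM in CYSP and 38.2, 35.6 and 39.5 CPM in CK. Sdhd passed only when the filter on low counts was raised to 50 counts in 3 samples. Without the TMM scaling between libraries, the median of the 4 subunits was -0.01 in place of 0.07.

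The 3 tested assembly factors of complex II were all higher. Sdhaf1, which helps insert iron-sulphur centres into Sdhb, had 98.9, 98.8 and 96.7 CPM in CYSP samples, against 23.1, 20 and 21 CPM in CK samples, a log2 fold change of 2.20 ± 0.0611 (edgeR adjusted p = 3.09e-47). Sdhaf3, another factor for Sdhb, had 4.74, 6.01 and 5.05 CPM in CYSP samples, against 1.52, 0.816 and 0.966 CPM in CK samples, a log2 fold change of 2.23 ± 0.26. Sdhaf2, which attaches the flavin to Sdha, had 65.7 ± 3.67 CPM in CYSP and 48.7 ± 3.72 CPM in CK, a log2 fold change of 0.43 ± 0.0585. On the FPKM scale Sdhaf2 did not pass, at 0.14 on the log2(FPKM + 1) scale.

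In complex III, 5 of 7 tested nuclear rows rose and 1 fell, around a median of 0.24. Uqcrh, the hinge protein near the cytochrome c site, had 49.4, 44.8 and 50 CPM in CYSP samples, against 23.3, 21 and 20.9 CPM in CK samples, a log2 fold change of 1.14 ± 0.0733. Uqcr10 had 0.64 ± 0.0837, Uqcrfs1 0.57 ± 0.049 and the core protein Uqcrc1 0.24 ± 0.0536. Uqcrb, which lies near a ubiquinone site, went the other way, with 36.3, 37.7 and 33.8 CPM in CYSP samples, against 49.6, 51.4 and 51.7 CPM in CK samples, a log2 fold change of -0.50 ± 0.0641. Uqcr11 was not tested, with under 2 FPKM in every sample.

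Complex IV held the largest changes of any complex in both directions. Among 15 tested nuclear rows 12 rose, 1 fell and 2 did not pass, with a median of 0.57, or 0.46 when rows that may be copies of another gene were left out. Its subunits include pairs of which one is in general use and the other is known for a particular tissue or for low oxygen, and the pairs were counted here as part of complex IV together with Ndufa4 and Ndufa4l2, whose names come from an earlier assignment to complex I.

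Ndufa4l2, a relative of Ndufa4 known as a hypoxia-inducible gene, had the largest gain of all members. It had 110, 102 and 106 CPM in CYSP samples, against 2.71, 4.14 and 1.93 CPM in CK samples, a log2 fold change of 5.18 ± 0.1 and 36.3-fold. Ndufa4 had 20.5, 21.2 and 22.2 CPM in CYSP samples, against 19.5, 17.6 and 19.2 CPM in CK samples, and did not pass at 0.18 ± 0.0922. Per length, Ndufa4l2 had 5.06, 4.65 and 4.44 times the FPKM of Ndufa4 in CYSP samples, against 0.132, 0.219 and 0.0937 times in CK samples. Ndufa4l2 was thus the more abundant of the pair in every CYSP sample and the less abundant in every CK sample.

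Cox4i2, the isoform of subunit IV known from lung and from low oxygen, showed the next largest gain. It had 46, 47.5 and 45.1 CPM in CYSP samples, against 2.65, 4.46 and 3.02 CPM in CK samples, a log2 fold change of 3.78 ± 0.113 and 13.8-fold. Cox4i1, the general isoform, had 118 ± 5.63 CPM in CYSP and 95.3 ± 1.67 CPM in CK, a log2 fold change of 0.31 ± 0.0444. The FPKM ratio of Cox4i2 to Cox4i1 was 0.57, 0.558 and 0.503 in CYSP samples and 0.0398, 0.0652 and 0.0432 in CK samples. Cox4i1 remained the more abundant of the pair in all 6 samples.

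The pair of subunit VIa ran the other way. Cox6a2, the isoform of heart and skeletal muscle, had 0, 0 and 0.273 CPM in CYSP samples, against 5.13, 6.4 and 5.01 CPM in CK samples, that is 4 counts in all CYSP samples together and 276 in CK. The edgeR log2 fold change was -5.86 ± 0.442. Cox6a1, the general isoform, had 104 ± 5.64 CPM in CYSP and 90.7 ± 4.57 CPM in CK, a log2 fold change of 0.19 ± 0.047. Cox6a2 was low next to Cox6a1 in both groups, at 0.00102 ± 0.00176 of its FPKM in CYSP and 0.0731 ± 0.0124 in CK. Of 8 striated muscle markers, 7 were found and 2 tested, both lower in CYSP, with a summed level of 0.182 to 0.546 CPM in CYSP and 3.5 to 4.9 CPM in CK. Ckm, Myh6 and Myh7 had no count in any sample, and the part of muscle-like cells in the Cox6a2 result was not tested.

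**Figure D4:**
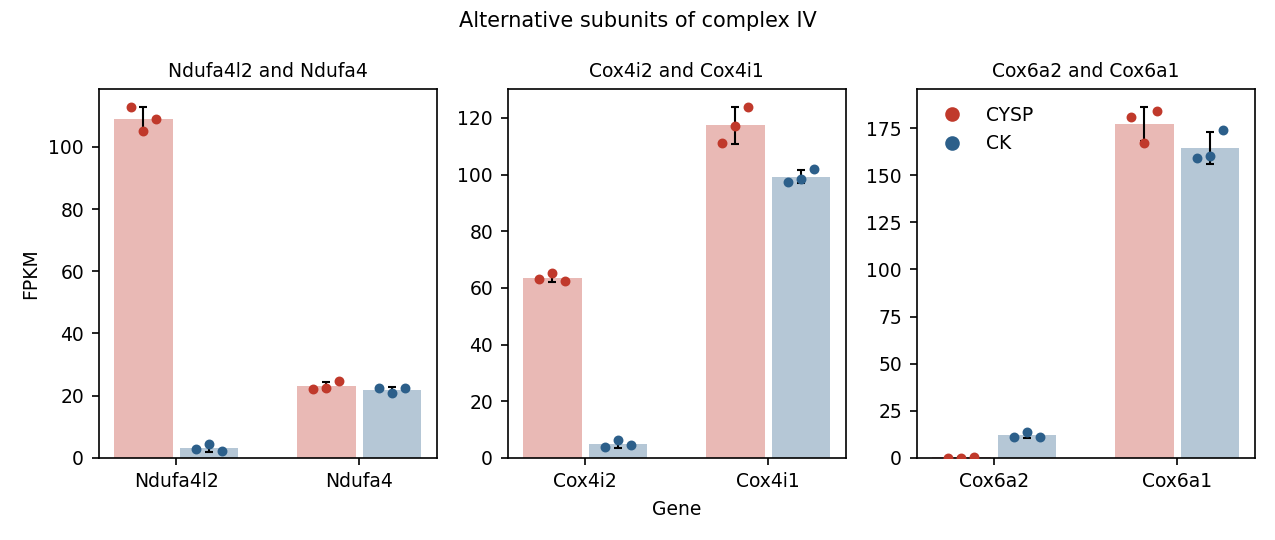
FPKM of 3 pairs of alternative complex IV subunits in CYSP and CK; bars are means, error bars SD (n = 3 each) and points samples. Ndufa4l2 exceeds Ndufa4 in CYSP only, Cox4i2 is near 63.5 FPKM in CYSP and 4.91 FPKM in CK, and Cox6a2 is at or near 0 in CYSP.

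Other complex IV members rose by less. Cox7a2l, also called SCAF1 and known for joining complexes III and IV into a supercomplex, had 160, 152 and 159 CPM in CYSP samples, against 70.8, 75.8 and 78.2 CPM in CK samples, a log2 fold change of 1.07 ± 0.0442. Cox6b1 stands on more than 1 row. The row with a length near that of a small subunit, 499 bases as implied by counts and FPKM, had a log2 fold change of 0.60 ± 0.0977. Another row under the same symbol, with an implied length of 7692 bases, had 2.62 ± 0.0502, and whether its reads come from Cox6b1 is uncertain. That row held 175, 187 and 182 CPM in CYSP and 29.6, 27.9 and 30.5 CPM in CK, which weighs on any sum over complex IV. Cox7a1, the muscle isoform of subunit VIIa, had at most 0.24 FPKM and was not tested, and the rows of Cox7a2 and Cox8a held no count.

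Promoters are shown for the Ndufa4l2 and Ndufa4 pair, whose order by level differed between the groups, and for Cox7a2l and Sdhaf1, which rose. They were searched because Ndufa4l2 and Cox4i2 are known targets of hypoxia-inducible factor, whose core site is ACGTG or GCGTG. No window was available for Cox4i2. Windows of some other members were searched in the same way and are not printed. Each sequence runs from 250 bases before to 50 bases after the gene start in RefSeq on the GRCr8 assembly, 5′ to 3′ on the gene's strand, with the core site on either strand in capitals. The windows are chr7:65241919-65242218, plus strand, for Ndufa4l2, chr4:40975510-40975809, minus strand, for Ndufa4, chr6:16936324-16936623, plus strand, for Cox7a2l, and chr1:94704562-94704861, minus strand, for Sdhaf1.
Ndufa4l2: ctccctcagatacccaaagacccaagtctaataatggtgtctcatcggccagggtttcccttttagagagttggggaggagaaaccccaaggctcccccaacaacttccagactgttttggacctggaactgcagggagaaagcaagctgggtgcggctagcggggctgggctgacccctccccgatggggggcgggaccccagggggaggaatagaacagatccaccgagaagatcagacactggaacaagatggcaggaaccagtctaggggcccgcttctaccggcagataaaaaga
Ndufa4: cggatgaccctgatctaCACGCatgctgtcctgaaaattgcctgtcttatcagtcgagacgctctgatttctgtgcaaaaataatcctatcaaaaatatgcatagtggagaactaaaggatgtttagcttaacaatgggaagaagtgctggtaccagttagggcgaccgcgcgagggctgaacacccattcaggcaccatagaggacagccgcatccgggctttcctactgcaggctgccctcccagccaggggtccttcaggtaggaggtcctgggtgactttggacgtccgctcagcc
Cox7a2l: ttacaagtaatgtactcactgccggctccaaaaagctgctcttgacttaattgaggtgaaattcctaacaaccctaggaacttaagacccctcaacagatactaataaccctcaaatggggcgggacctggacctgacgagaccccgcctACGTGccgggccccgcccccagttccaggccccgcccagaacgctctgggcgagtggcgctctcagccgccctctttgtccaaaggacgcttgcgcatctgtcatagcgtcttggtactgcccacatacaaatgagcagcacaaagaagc
Sdhaf1: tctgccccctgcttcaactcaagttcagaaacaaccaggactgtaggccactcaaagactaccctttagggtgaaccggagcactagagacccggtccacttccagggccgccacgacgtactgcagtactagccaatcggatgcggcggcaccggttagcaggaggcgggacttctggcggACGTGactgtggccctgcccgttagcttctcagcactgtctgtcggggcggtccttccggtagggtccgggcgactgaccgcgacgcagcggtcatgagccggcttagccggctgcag

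The letters of the core were found once each in the windows of Ndufa4, Cox7a2l and Sdhaf1 and not in that of Ndufa4l2. Among windows not printed, the core stood at 1 place for Sdhaf3 and at 2 places each for Cox4i1 and Uqcrq. It was absent from those of Uqcrh and Cox6a2. A match is a description of the letters, not of a bound site. Of 81 tested nuclear members on their main row, 72 had a promoter in the table. The core stood in 58.5% of the 41 that rose and in 61.3% of the 31 that did not, and in 41.6% of all 33469 promoters. The sites of 3 other factor families were also counted on both strands, and none overlapped the capitals shown. The palindromic site of NRF1 stood in 5 of the 72 members (6.94%) and in 0.852% of all promoters. The ETS site CCGGAAGT, which GABPA can bind, stood in 7 (9.72%) and in 3.81%. The ERR site TNAAGGTCA stood in 3 (4.17%) and in 1.2%. Of the 41 members that rose, 4 had the NRF1 site, 4 the ETS site and 2 the ERR site. Of the 31 that did not, 1, 3 and 1 had them in the same order. All promoters were not limited to tested genes or matched to members in base content.

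In complex V, 10 of 16 tested nuclear rows rose, 1 fell and 5 did not pass, with a median of 0.24. Atp5mpl, a small membrane subunit, had 25.3, 23.6 and 26.5 CPM in CYSP samples, against 15, 13.1 and 12.3 CPM in CK samples, a log2 fold change of 0.90 ± 0.0969, on the row of that symbol with most counts. Atp5mg had 0.56 ± 0.0663, the stator subunit Atp5pd 0.53 ± 0.0464 and the rotor subunit Atp5f1d 0.50 ± 0.0508. Atp5mf was lower at 21.4, 23.5 and 24.9 CPM in CYSP, against 28.6, 27.4 and 27 CPM in CK, a log2 fold change of -0.25 ± 0.0827, and it did not pass without CYSP sample 1. Of the genes for the c-ring, which turns as protons pass, Atp5mc2 had 0.23 ± 0.0516 and Atp5mc3 0.37 ± 0.0623, and their FPKM ratio overlapped between groups. Atp5if1, which inhibits the enzyme when it runs backwards, was at 51.1, 50.6 and 60.1 CPM in CYSP and 50.6, 60 and 51.5 CPM in CK, a log2 fold change of -0.00 ± 0.066 with overlapping groups.

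Genes that act around the complexes, taken from lists drawn up with earlier results of these data known, changed unevenly. Cox10, Cyc1, Cycs, Tfam, Polrmt, Gabpa, Nrf1 and Nrip1 are named below for their role, after their values were seen. Of 18 tested complex IV assembly genes 6 rose and 1 fell, with a median of 0.14, beside 38.2% and 37.8% of all genes. Pet100, a small assembly factor, had 13.2, 11 and 10 CPM in CYSP, against 2.48, 3.77 and 5.07 CPM in CK, a log2 fold change of 1.61 ± 0.171. Higd1a, a hypoxia-inducible protein that binds complex IV, had 49.4 ± 2.16 CPM in CYSP and 20.4 ± 1.85 CPM in CK, a log2 fold change of 1.28 ± 0.0744, whereas Cox10, which makes haem for complex IV, fell by 0.43. Of 8 complex I assembly genes outside the rule 3 rose and none fell. Among 6 for complex III 2 rose and 2 fell, and of 4 for the ATP synthase 2 rose. For complexes I, III and IV the share of assembly genes that rose was near the 38.2% of all genes or slightly below it. These lists are too short to tell such shares apart. The share that fell was below the 37.8% of all genes for complexes I and IV, and by less for complex III.

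Of 18 electron carriers and enzymes that feed ubiquinone, 9 were higher and 2 lower, beside 38.2% and 37.8% of all genes. Those shares of all genes also stand beside the lists that follow. Dhodh, the pyrimidine synthesis enzyme that passes electrons to ubiquinone, had 26.2, 25.4 and 25.9 CPM in CYSP, against 6.71, 6.91 and 6.52 CPM in CK, a log2 fold change of 1.94 ± 0.109. Gpd2, the mitochondrial glycerol phosphate dehydrogenase, had 1.09 ± 0.113. Cyc1, the haem subunit of complex III that the symbol rule misses, had 0.34 ± 0.0644, and cytochrome c, Cycs, did not pass at 0.04 ± 0.0451. Among 14 citric acid cycle genes 8 rose and 2 fell, with a median of 0.15, and among 17 carriers and import genes 11 rose and 2 fell, with a median of 0.14. Of 3 tested uncoupling proteins 2 rose and 1 fell. Slc25a27 and Slc25a14, carriers also called UCP4 and UCP5, had log2 fold changes of 2.05 ± 0.248 and 0.80 ± 0.198. Ucp2 had 16.8 ± 1.21 CPM in CYSP and 31.4 ± 5.32 CPM in CK, a log2 fold change of -0.90 ± 0.0985, while Ucp1 and Ucp3 had no count.

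Of 16 tested factors that copy and transcribe mitochondrial DNA, 4 rose and 5 fell, around a median of 0.04, shares no higher than the 38.2% and 37.8% of all genes. Tfam, which packages mitochondrial DNA and starts its transcription, had 23.1, 23.8 and 22.6 CPM in CYSP, against 18.8, 20.3 and 19.2 CPM in CK, a log2 fold change of 0.25 ± 0.0895. Twnk, the helicase, had 0.50 ± 0.106, while Mterf3 had -0.51 ± 0.0934 and Tefm, an elongation factor, -0.63 ± 0.231. Polrmt, the mitochondrial RNA polymerase, was at 0.27 ± 0.128 with an edgeR adjusted p of 0.0489. Of 15 tested genes that process or stabilise mitochondrial RNA, 2 rose and 6 fell, with a median of -0.13. Lrpprc, which stabilises mitochondrial mRNAs, had 108, 110 and 104 CPM in CYSP, against 68.7, 66.1 and 74.2 CPM in CK, a log2 fold change of 0.62 ± 0.0483, and Prorp, the nuclease of mitochondrial RNase P, had 0.73 ± 0.13. Fastk and Tbrg4, of a family that binds mitochondrial RNA, fell by similar amounts, with -0.63 ± 0.0757 and -0.62 ± 0.0799.

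Of 11 tested nuclear regulators of mitochondrial genes 2 were higher and 6 lower, around a median of -0.49, beside 38.2% and 37.8% of all genes. No test of that count was made. The pair that rose was Ppargc1a, the coactivator PGC-1alpha, and Esrra, the nuclear receptor it works with. Ppargc1a had 5.04, 7.02 and 6.07 CPM in CYSP samples, against 0.113, 0.126 and 0.0604 CPM in CK samples, which is 276 counts in CYSP and 5 in CK, and an edgeR log2 fold change of 5.81 ± 0.398. Esrra had 51.1, 48.4 and 49.1 CPM in CYSP samples, against 10.7, 13.3 and 11.5 CPM in CK samples, a log2 fold change of 2.07 ± 0.0831. Gabpa, a factor that binds promoters of nuclear respiratory genes, was lower at 24.9, 33.6 and 34.9 CPM in CYSP, against 64.5, 62.4 and 65.7 CPM in CK. Nrf1, another such factor, was at -0.49 ± 0.0939, the coactivator Pprc1 at -1.31 ± 0.0652 and the corepressor Nrip1 at -1.17 ± 0.0857.

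**Figure D5:**
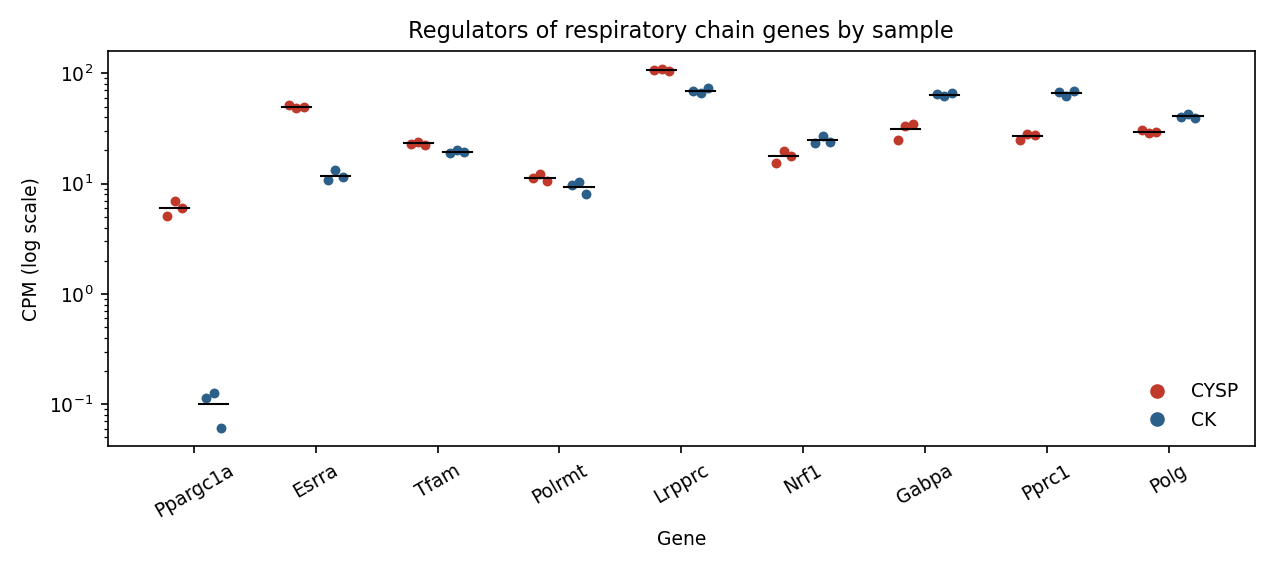
CPM (log scale) of 9 genes in each sample, a selection from the lists of mitochondrial DNA factors, mitochondrial RNA factors and nuclear regulators. Points are samples and lines are group means (n = 3 each). On each of these lists more genes fell than rose. Ppargc1a and Esrra show the widest gaps with CYSP above CK, while Nrf1, Gabpa, Pprc1 and Polg lie lower in CYSP.

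Markers of other cells moved with the groups and stand beside every result above. For comparison, 38.2% of all tested genes rose and 37.8% fell. Of 10 macrophage and leukocyte markers 9 fell and 1, Cd163, rose, with a summed level of 475 to 477 CPM in CYSP and 1639 to 1866 CPM in CK. Of 10 marrow stromal markers 6 rose and 3 fell, with a sum of 13165 to 14048 CPM in CYSP and 44490 to 46312 CPM in CK. Col1a1, a collagen chain, makes up most of that sum, with 9663 ± 436 CPM in CYSP and 40645 ± 959 CPM in CK, so the sum runs against the 6 markers that rose. Of 5 tested neuronal markers 3 rose and 2 fell, with a sum of 90.7 to 98.5 CPM in CYSP and 17 to 17.4 CPM in CK. Snap25 and Tubb3 make up most of the CYSP sum, at 48.8 ± 3.16 and 37.8 ± 2.59 CPM. In CK they had 0.0201 ± 0.0348 and 8.66 ± 1.07 CPM. Map2 and Dcx fell, with log2 fold changes of -1.65 and -4.44. Rbfox3, a defining marker of mature neurons, had no count. Of 5 tested fat-cell markers 3 rose and 1 fell, with a sum of 609 to 640 CPM in CYSP and 76 to 82.3 CPM in CK, and Ucp1 had no count. Adipoq alone accounts for most of the CYSP sum, with 519 ± 13.2 CPM in CYSP and 0.199 ± 0.253 CPM in CK, and Plin1 and Cidec, also defining markers, had no count in CYSP. The part of these differences in the respiratory chain results was not tested.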

How the data were processed

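RNA from 6 samples, 3 CYSP and 3 CK, was extracted with Trizol and selected on oligo(dT) beads, per the labels' protocols. The submitters' processing notes name fastp 0.18.0, HISAT2, StringTie 1.3.1 and RSEM, with no role for any of them. The sources used here give neither the counting tool nor the genome build, so coordinates are printed only for RefSeq promoters. The deposited table has raw counts for each gene in each sample, per the file headers, with the authors' FPKM values beside them, per the file headers.

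Counts were tested over all 12623 genes that passed filterByExpr with edgeR 4.0.16 in R 4.3.3 (TMM scaling, robust glmQLFit and glmQLFTest), with Benjamini-Hochberg adjustment and a threshold of 0.05. CPM values are TMM-scaled; standard errors were computed as the fold change over the square root of F. FPKM was used for levels between genes. Standard errors of genes with few counts understate the error. The procedure was tested on simulated data.

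Groups came from sample titles. Members and lists were chosen with earlier results of these data known. A symbol on several rows (27 symbols) keeps each row, and reads may be split between near-identical copies. Named genes were all mitochondrial members, up to 4 nuclear members per complex and direction with the largest changes past the threshold and a mean of at least 1 CPM, every member past a log2 fold change of 1, the isoform pairs, complex II, and up to 3 changed genes per list, of which a selection is printed. Some of what this rule takes is not reported here. Alternatives were other scalings, filters, DESeq2 1.42.0, limma-voom, limma 3.58.1 with trend on log2(FPKM + 1) and log2(FPKM + 0.1) (mean FPKM of 0.5 or more), an assumed coefficient of variation, glmTreat, a replicate block and each sample left out. One alternative, which keeps a single row per symbol, was chosen after seeing the data.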

Additional observations from a re-analysis of the deposited data

How the results depend on the processing

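All 13 mitochondrial members stayed higher and past the threshold under every alternative run, and no tested member that passed changed direction. Without scaling between libraries the mitochondrial median was 1.26, nuclear rows lower were 9 (6 in complex I), and the medians were -0.01 for complex II, 0.49 for complex IV and 0.15 for complex V. With a filter of 50 counts in 3 samples 1 complex I row was lower and 1 complex II row higher; DESeq2, and scaling without mitochondrial transcripts, also left 1 complex I row lower. With an assumed coefficient of variation of 0.2, 3102 genes were higher and 2801 lower, nuclear members numbered 23 and 1, complex I 7 and 0, complex III 3 and 0, and complex V 2 and 0. Against a log2 fold change of 0.5, 2753 genes were higher and 2478 lower, nuclear members 15 and 1, complex I 4 and 0, complex III 2 and 0, complex V 1 and 0, and complex IV had 5 higher. On log2(FPKM + 1) the mitochondrial median was 1.26, 12 nuclear rows were lower (7 in complex I), and the medians were 0.16 for nuclear members, -0.01 for complex II, 0.13 for complex III and 0.47 for complex IV. On log2(FPKM + 0.1) the medians were 1.26, 0.16, -0.01, 0.14 and 0.48 in the same order, with 12 and 7 rows lower. With 1 row per symbol the complex IV median was 0.46, and the mitochondrial share ratio by FPKM was 1.88. All genes moved down as well. Their median was -0.08 without scaling between libraries, -0.07 on log2(FPKM + 1) and -0.09 on log2(FPKM + 0.1), against 0.00 in the main fit. In each of these settings the shift of all genes was -0.08. Genes lower and higher numbered 5291 and 4345, 5049 and 3968, and 5034 and 3943 in the same order. Beyond this shift of all genes, the cause of the changes in members was not tested. Leaving out 1 sample gave 3 to 5 nuclear rows lower (3 without CYSP sample 1), 1 to 2 in complex I and 0 to 1 in complex V. Same-numbered samples did not deviate together (correlations of -0.001, 0.019 and -0.009). With a replicate block, 4773 genes were higher and 4713 lower, and of the members Ndufa11 and Ndufa8 lost their calls.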

Other observations

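The deposited annotation lists further genes under the KEGG oxidative phosphorylation pathway that the symbols above do not take in. Of 30 such genes tested, 19 were higher and 3 lower in CYSP, around a median log2 fold change of 0.66. Among 87 tested members in the same pathway 60 were higher and 5 lower, around 0.37. Over all genes tested, 38.2% were higher and 37.8% lower. Many of the 30 pathway genes outside the members are subunits of the V-ATPase, the proton pump of lysosomes and other acidic compartments. Of its 18 tested subunits 15 were higher and 1 lower, around 0.81. This group was looked at after its values were seen.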
